A study of Mus musculus with 6 samples.

Results

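Transcript levels of 10 genes for effector cytokines and ligands of the tumour necrosis factor (TNF) family were measured in mouse CD8+ T cells, lymphocytes that recognise and kill infected or malignant cells. The genes were chosen by symbol, for what their products are known to do, and with earlier results of these data known. All 10 were among the 24589 genes of the table. Ifng, Lif and Il21 encode secreted cytokines, and Tnf, Lta, Ltb, Fasl, Tnfsf10, Tnfsf11 and Tnfsf14 encode TNF family ligands. Primary wild-type CD8+ T cells, which per the study came from spleen and lymph nodes of C57BL/6 mice, were activated with antibodies to CD3 and CD28. They were then kept for 24 h in 20 µM trans-vaccenic acid (TVA), a long-chain trans fatty acid of ruminant fat, or in DMSO, the solvent control. Both groups shared the activation, so no resting cells stand beside them. Each group had 3 libraries. The labels do not say whether the libraries came from separate mice or cultures, so p-values measure only the spread between these samples, which may be technical. Per the study, its mice were age-matched young adults of both sexes, and the labels give no age for these libraries.

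Effector CD8+ T cells act on other cells partly through what they secrete or display. Interferon-γ, the product of Ifng, signals through a receptor found on most cells and raises antigen presentation and antiviral genes. TNF family ligands are mostly made as membrane proteins, act as trimers, and bind receptors that either recruit TRAF adaptors and activate NF-κB or, through a death domain, start the caspase cascade. Many messengers of this group are short-lived, and AU-rich elements after the stop codon mark them for decay. The study asked what TVA changes in CD8+ T cells and followed a pathway from cAMP through protein kinase A to the transcription factor CREB, so the start regions of these genes are shown first.

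The 250 bases before the RefSeq transcript start (GRCm38.p6, which is the mm10 build of the files) were read for all 10 genes. The 2 genes that passed the test below and 3 others that represent the motifs found are printed, 5′ to 3′ on the strand of the gene. Capitals mark, on either strand, the short site of the cAMP response element that CREB binds (TGACG or its complement CGTCA), the core that NFAT factors bind (GGAAA or TTTCC), and the AP-1 element TGANTCA.
Lta, chr17:35205352-35205601, minus strand: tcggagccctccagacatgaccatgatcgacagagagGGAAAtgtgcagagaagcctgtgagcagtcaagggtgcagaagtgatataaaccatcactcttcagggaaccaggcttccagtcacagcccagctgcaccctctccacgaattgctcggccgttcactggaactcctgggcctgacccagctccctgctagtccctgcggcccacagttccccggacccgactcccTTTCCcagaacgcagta
Tnfsf11, chr14:78308044-78308293, minus strand: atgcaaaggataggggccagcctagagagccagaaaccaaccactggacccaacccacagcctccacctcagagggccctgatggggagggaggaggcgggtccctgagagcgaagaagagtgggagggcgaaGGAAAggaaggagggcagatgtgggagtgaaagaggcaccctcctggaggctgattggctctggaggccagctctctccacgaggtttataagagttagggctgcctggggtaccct
Tnf, chr17:35202008-35202257, minus strand: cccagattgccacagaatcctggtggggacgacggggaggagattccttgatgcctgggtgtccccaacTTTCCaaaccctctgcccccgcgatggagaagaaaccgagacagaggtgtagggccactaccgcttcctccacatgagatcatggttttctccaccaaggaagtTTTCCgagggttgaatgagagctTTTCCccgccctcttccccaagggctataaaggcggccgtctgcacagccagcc
Ifng, chr10:118440796-118441045, plus strand: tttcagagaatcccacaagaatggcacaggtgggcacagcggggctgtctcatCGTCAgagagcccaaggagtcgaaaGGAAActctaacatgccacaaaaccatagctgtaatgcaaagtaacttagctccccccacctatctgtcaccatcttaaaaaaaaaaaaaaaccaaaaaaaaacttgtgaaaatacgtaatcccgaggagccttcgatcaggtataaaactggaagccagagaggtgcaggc
Tnfsf14, chr17:57194182-57194431, minus strand: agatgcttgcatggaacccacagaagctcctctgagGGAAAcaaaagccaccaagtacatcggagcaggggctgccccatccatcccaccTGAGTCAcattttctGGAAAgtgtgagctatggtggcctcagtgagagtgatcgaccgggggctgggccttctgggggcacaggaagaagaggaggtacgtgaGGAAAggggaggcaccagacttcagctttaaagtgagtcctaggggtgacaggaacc

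The RefSeq gene of Lta reaches beyond the start used for its window, so most of that window lies inside the annotated gene. The full cAMP response element TGACGTCA was in none of the 10 windows (each running from 250 bases before the start to 50 after it), against 1.79% of 32851 windows of the same length. The short site was in 3 of 10 windows, those of Ifng, Fasl and Tnfsf10, against 20.8% of all windows. Neither Lta nor Tnfsf11 held one. The NFAT core, a common 5-letter word held by 61.3% of all windows, was in all 10. The AP-1 element was in 2 windows, those of Lif and Tnfsf14, against 7.81% of all. The short site is part of the full element, and the other motifs do not contain it. These are matches of letters and not measured binding.

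The AU-rich nonamer TTATTTATT was looked for after the stop codon of the principal transcript of each gene in GENCODE vM21 (GRCm38). It was found in 4 of the 10 genes, and in 7.55% of 10179 genes tested that have such a transcript. Tnf held 5 copies, some of them overlapping, Lif 2, and Lta and Il21 1 each. The first copy of each gene is shown as transcribed, with the nonamer in capitals. Each lies in the 3′ untranslated region.
Tnf, chr17:35199689-35199717, minus strand: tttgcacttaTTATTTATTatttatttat
Lta, chr17:35203396-35203424, minus strand: aaaagttaagTTATTTATTtatagagaat
Lif, chr11:4272039-4272067, plus strand: aaaggggcctTTATTTATTatttaaaact
Il21, chr3:37222826-37222854, minus strand: aacttaatgaTTATTTATTatgtatttgg

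The shorter pentamer ATTTA, which the nonamer contains, was counted over the same regions. Tnf had 10.5 per kilobase, Ifng 9.51, Tnfsf11 5.31 and Lta 5.24, beside a median of 1.29 over the 10179 genes. Ltb had none, and Tnfsf14 had 0.981 per kilobase. Of these genes, Tnfsf11 and Lta passed the test below, and Tnf, Ifng, Ltb and Tnfsf14 did not. Whether pentamer density bears on the changes was not tested.

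The 10 genes covered a wide span of levels. All values are TPM (transcript abundance scaled for transcript length and to one total per library), so that levels can be set side by side between genes. In DMSO, Ifng stood far above the others at 1670 ± 51.0 TPM (SD, n = 3), the rank of 100 among all genes. It was followed by Lta at 220.3 ± 8.66, Ltb at 196.5 ± 24.9, Tnfsf11 at 166.4 ± 10.6 and Tnf at 157.1 ± 8.66. The ranges of these 4 ligands overlapped from each to the next, so that their order in DMSO is not separated beyond the spread. Tnfsf14 at 85.2 ± 0.522 TPM, Lif at 57.3 ± 2.65, Fasl at 16.5 ± 1.10 and Tnfsf10 at 7.38 ± 0.608 then followed without overlap. Il21 was the lowest of the 10, at 0.470 ± 0.0755 TPM. In TVA, Ifng again led (1737 ± 11.4, rank 99) and the 4 ligands behind it no longer followed in the same order: Ltb and Tnf lay at 168.8 ± 5.37 and 167.8 ± 3.03, above Tnfsf11 at 137.8 ± 0.285.

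**Figure D1:**
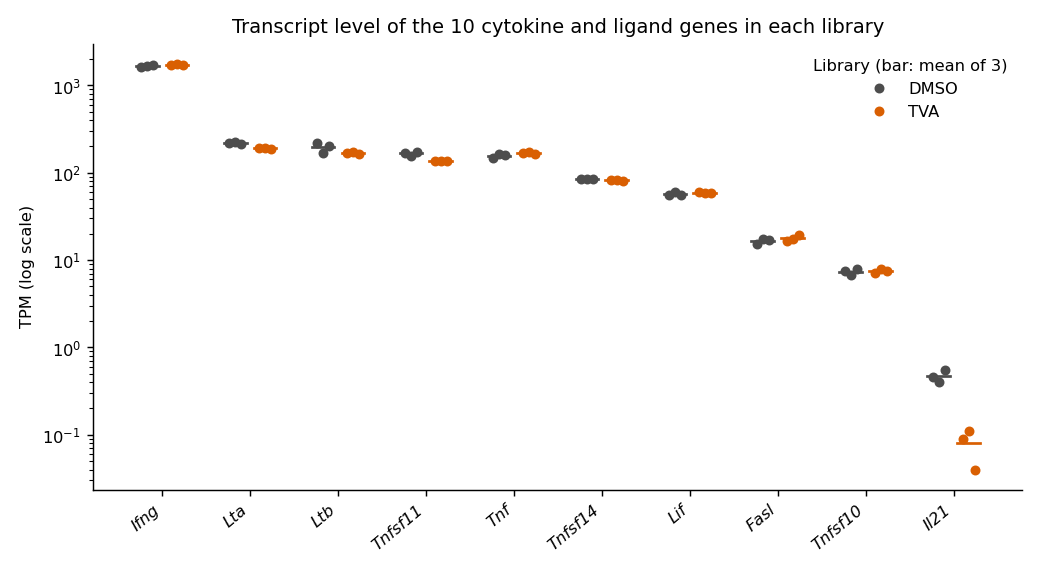
Level of each of the 10 genes in each library, in TPM on a log axis. Points are libraries (grey DMSO, orange TVA, 3 each) and bars are group means. Ifng stands at 1626 to 1749 TPM over both groups, and the groups lie furthest apart on this axis for Il21, at values of 0.550 TPM or less.

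Of the 10 genes, 9 reached 1 TPM in 3 or more libraries and were tested, whereas Il21 did not pass that filter. With limma on log2(TPM + 1), none of the 9 rose and 2 fell, Lta and Tnfsf11, at a Benjamini-Hochberg adjusted p under 0.05 over all 10866 genes tested. Over all genes, 5.28% rose and 3.23% fell. These shares were 2.48% and 4.53% with median-of-ratios scaling, 3.29% and 3.85% with quantile normalization and 5.27% and 4.94% with a GC correction, which removes each library's trend with transcript GC content. At an unadjusted p under 0.05 there were 3 of the 9, all lower and the third being Ltb, and 0 higher, beside 3451 of the 10866 genes. The log2 changes of the 9 genes had a median of 0.02, beside 0.04 over all genes tested, and 5 were above 0. The 3 values of each group did not overlap for 5 of the 9, beside 38.6% of all genes tested.

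**Figure D2:**
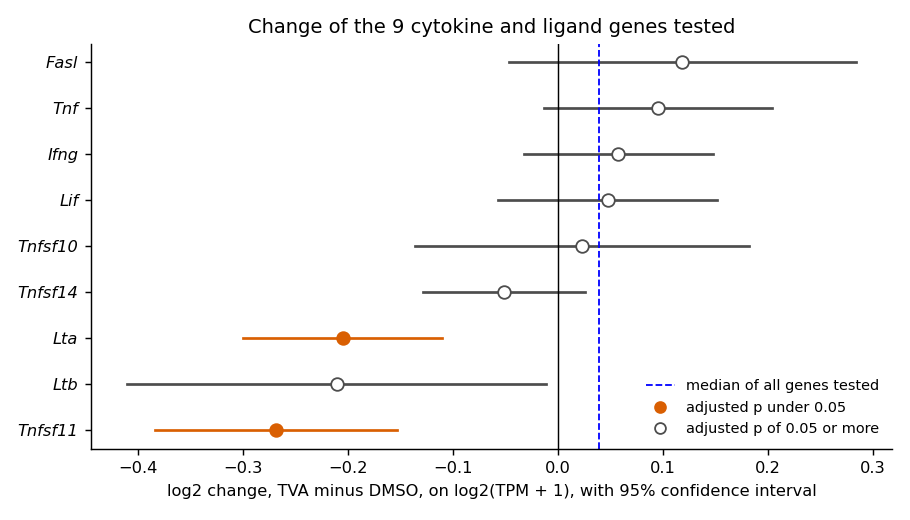
log2 change of the 9 genes tested, TVA minus DMSO on log2(TPM + 1), with the 95% confidence interval of each (lines). Filled points have a limma adjusted p under 0.05, the dashed line is the median of all genes tested (0.04), and Tnfsf11 and Lta are the 2 filled points, at -0.27 and -0.21.

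Ifng, the main cytokine of these cells, was at 1626, 1657 and 1726 TPM in the DMSO libraries and at 1726, 1749 and 1737 in TVA. The groups did not overlap, but the highest DMSO library lay within 1 TPM of the lowest TVA library. The log2 change was 0.06 ± 0.04 (SE), with a 95% interval from -0.03 to 0.15, or from -2.19% to 10.8% in level (adjusted p = 0.330). The GC correction moved the change to -0.01.

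Tnf, the ligand that gives the family its name and whose messenger carries the densest AU-rich region of the 10, was at 148, 165 and 158 TPM in DMSO and at 166, 171 and 166 in TVA. Every TVA library lay above every DMSO library, DMSO replicate 2 by the least. The log2 change of 0.10 ± 0.05 (95% interval -0.01 to 0.20) did not pass the test (adjusted p = 0.202). Under the alternatives its adjusted p ranged from 0.0662 to 0.502.

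Lta encodes lymphotoxin-α, which is secreted as a trimer that binds the TNF receptors, or joins lymphotoxin-β at the membrane to bind the lymphotoxin-β receptor. It was at 222, 228 and 211 TPM in DMSO and at 194, 191 and 188 in TVA. All 3 TVA libraries lay below all DMSO libraries, with a gap nearly as wide as the range within DMSO. Lta fell by 13.3%, a log2 change of -0.21 ± 0.04 (95% interval -0.30 to -0.11, adjusted p = 0.0280). The fall held with the GC correction (-0.17, adjusted p = 0.0477) and without DMSO replicate 2 (-0.18, adjusted p = 0.0219). Without any single TVA library it was no longer called, with adjusted p from 0.0920 to 0.142 and changes from -0.22 to -0.19.

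Tnfsf11 encodes RANKL, the ligand that drives osteoclast formation and that activated T cells also make. Its values in DMSO were 169.6, 155 and 175 TPM, and in TVA 138, 138 and 138. The TVA libraries had an SD of 0.285 TPM and were all below the DMSO libraries, of which replicate 2 was the lowest. Tnfsf11 fell by 17.2%, a log2 change of -0.27 ± 0.05 (95% interval -0.38 to -0.15, adjusted p = 0.0232), the largest change among the 9 genes tested. It reached -0.32 (adjusted p = 0.00178) without DMSO replicate 2 and -0.33 (adjusted p = 0.00912) with the GC correction. It was not called without DMSO replicate 3 (adjusted p = 0.0594) or without any single TVA library (0.0946 to 0.115).

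Ltb encodes lymphotoxin-β, the membrane partner of lymphotoxin-α. It was at 218, 169 and 202 TPM in DMSO and at 167, 175 and 165 in TVA. DMSO replicate 2 lay among the TVA libraries, while the other DMSO libraries lay above them. The DMSO spread was the widest among the 7 TNF family ligands of the 10 genes. The log2 change of -0.21 ± 0.09 (95% interval -0.41 to -0.01) did not pass the test (adjusted p = 0.141). Without DMSO replicate 2 it was -0.31 (adjusted p = 0.00611), and with the GC correction it turned to 0.08 (adjusted p = 0.249). Ltb transcripts have a GC content of 62.6%, the highest of the 10 genes, and the direction of its change depends on that correction.

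Tnf, Lta and Ltb are neighbours on chromosome 17. By RefSeq coordinates on GRCm38.p6, Ltb lies at chr17:35194507-35196305 on the plus strand, Tnf at chr17:35199367-35202007 and Lta at chr17:35203165-35205578, both on the minus strand. The gap between Ltb and Tnf is 3061 bases and that between Tnf and Lta 1157 bases. The fitted changes of Tnf and Lta had opposite signs, so the ratios among the 3 genes were taken within each library, after their values had been seen. The ratio of Tnf to Lta TPM was 0.666, 0.725 and 0.750 in DMSO and 0.856, 0.898 and 0.883 in TVA. No DMSO library reached a TVA library, and the log2 difference was 0.30. The exact two-sided permutation test gave p = 0.1, the smallest that 3 against 3 libraries can give (0.15 adjusted over the 3 ratios). The ratio of Lta to Ltb was 1.14 ± 0.182 in DMSO and 1.13 ± 0.0379 in TVA (exact permutation p = 1). That of Tnf to Ltb was 0.812 ± 0.151 and 0.994 ± 0.0136, again without overlap (exact permutation p = 0.1), and rests on the Ltb values above.

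**Figure D3:**
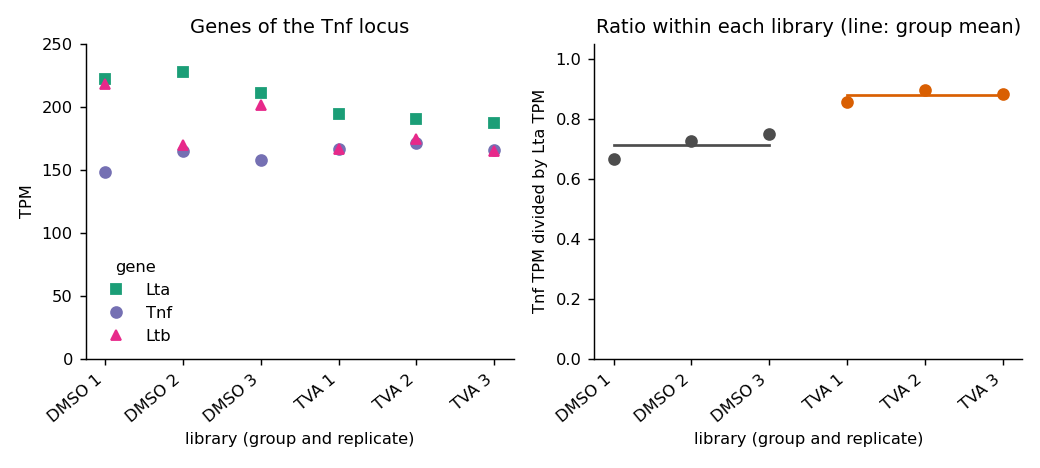
Left, TPM of Lta, Tnf and Ltb in each of the 6 libraries; right, the ratio of Tnf to Lta TPM in each library, with lines at the group means (0.714 in DMSO, 0.879 in TVA). Lta is lower in every TVA library, and the Ltb value of DMSO replicate 2 lies at the level of the TVA libraries.

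The other TNF family ligands among the 10 showed small differences. Tnfsf14 encodes LIGHT, which binds HVEM and the lymphotoxin-β receptor, and was at 84.8, 85.8 and 84.9 TPM in DMSO and at 82.1, 83.1 and 81.4 in TVA. The groups did not overlap, but the log2 change was only -0.05 ± 0.03 (adjusted p = 0.316), and its interval of -0.13 to 0.03 runs from -8.49% to 1.79% in level. Fasl, the death ligand with which cytotoxic T cells trigger apoptosis, was at 15.3, 17.3 and 16.9 TPM in DMSO and at 16.7, 17.7 and 19.6 in TVA. The groups overlapped, and the change of 0.12 ± 0.07 did not pass (95% interval -0.05 to 0.28, adjusted p = 0.281). Tnfsf10 encodes TRAIL, a ligand of death receptors, and was at 7.52, 6.71 and 7.90 TPM in DMSO and 7.20, 7.88 and 7.42 in TVA. The 6 values were interleaved, with a change of 0.02 ± 0.07 (adjusted p = 0.835) whose sign turned under several alternatives. Summed over the 7 ligands, the DMSO libraries held 827 to 866 TPM and the TVA libraries 764 to 784.

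Lif encodes leukaemia inhibitory factor, a cytokine of the IL-6 family. It was at 56.2, 60.3 and 55.3 TPM in DMSO and at 60.8, 58.3 and 58.4 in TVA. The groups overlapped, and the change of 0.05 ± 0.04 did not pass (95% interval -0.06 to 0.15, adjusted p = 0.489).

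Il21, a cytokine best known from CD4+ helper T cells, was listed at 0.460, 0.400 and 0.550 TPM in DMSO and at 0.0900, 0.110 and 0.0400 in TVA. Each TVA library was below each DMSO library. In a fit of all 16749 genes above 0 TPM in some library, of which 1.34% fell, the log2 change on the TPM + 1 scale was -0.44 (adjusted p = 0.0145), and with a pseudocount of 0.1 it was -1.68 (adjusted p = 0.0169). Leaving out any library but DMSO replicate 2 ended the call in that fit, with adjusted p from 0.0559 to 0.120. At this level a value may rest on few reads, and the depth is unknown. Cd4, the defining gene of helper T cells, was at 3.80 to 4.46 TPM in DMSO and at 3.33 to 3.64 in TVA (log2 change -0.19, adjusted p = 0.119). The summed level of 3 CD4+ T cell markers (Cd4, Foxp3 and Zbtb7b), none of which passed the test, was 9.97 to 11.6 TPM in DMSO and 8.72 to 10.4 in TVA. The part of such cells in the Il21 difference was not tested. In bulk RNA, fewer cells of a type and less RNA per cell cannot be told apart. An antisense gene overlaps Il21 in GENCODE vM21, and whether the counting used strand is not given in the sources used here.

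**Figure D4:**
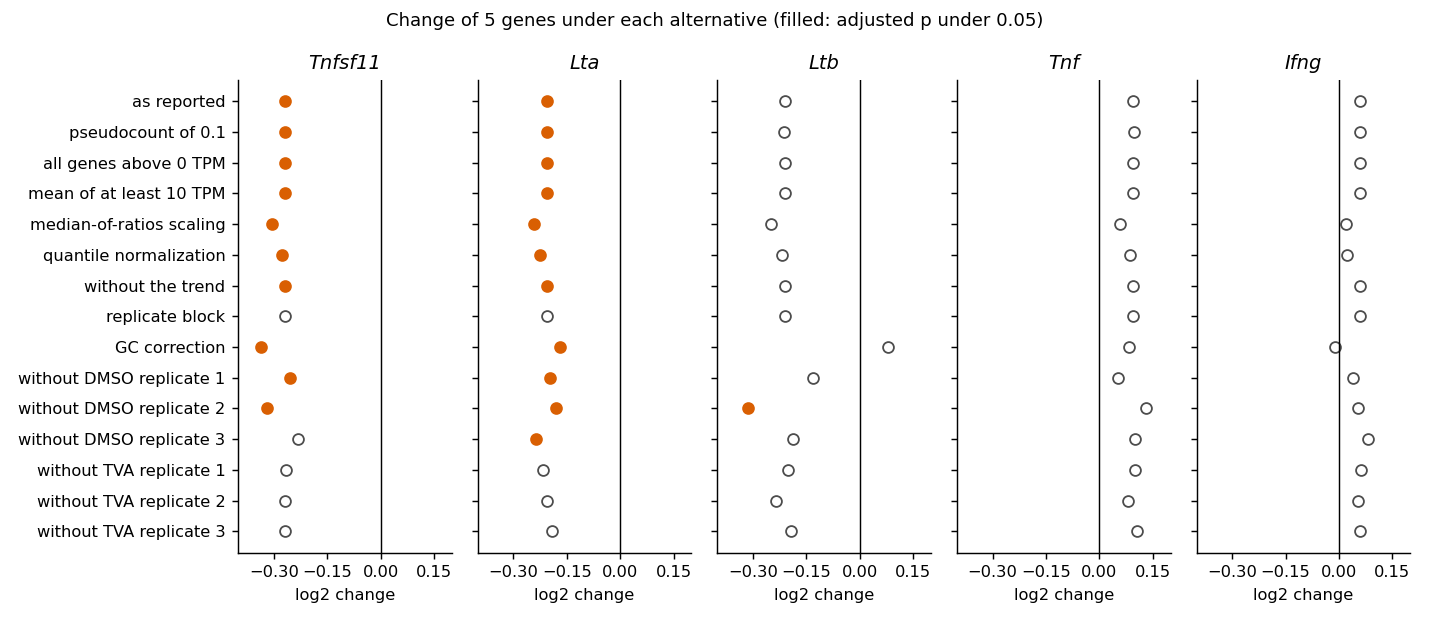
log2 change of Tnfsf11, Lta, Ltb, Tnf and Ifng as reported and under each alternative. Filled points have an adjusted p under 0.05, and the vertical line marks 0: Lta was called under 10 of 14 alternatives and Tnfsf11 under 9 of 14, all below 0, whereas Ltb and Ifng crossed 0 with the GC correction.

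The genes whose levels followed Tnfsf11 most closely over the 6 libraries were Ripk2 (r = 0.995), Nrn1 (0.994) and Tesc (0.987), by Pearson correlation of log2(TPM + 1) among the 8926 genes that averaged 5 TPM or more. This describes 6 libraries in 2 groups, so that any gene that differed between the groups with the same spread scores high, and 76 genes exceeded 0.95. Ripk2, a kinase of the NOD receptor pathway, was at 26.0 ± 1.43 TPM in DMSO and 21.0 ± 0.148 in TVA. Nrn1, which encodes neuritin, was at 191.2 ± 6.63 and 166.2 ± 1.43. Tesc, which encodes the calcium-binding protein tescalcin, was at 12.9 ± 2.06 and 8.32 ± 0.420.

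Of 15 receptor genes for the 10 ligands and cytokines, 12 were tested, 1 rose and 1 fell, and their median log2 change was 0.06. Il21r, the receptor chain for IL-21, was at 273, 283 and 260.0 TPM in DMSO and at 331, 325 and 321 in TVA, and rose by 0.26 ± 0.04 on the log2 scale (adjusted p = 0.0162). The receptor gene was thus abundant and higher with TVA while its ligand gene was near 0 TPM in both groups. Btla, which encodes an inhibitory partner of the LIGHT receptor HVEM, was at 92.1, 104 and 97.1 TPM in DMSO and 77.7, 82.0 and 80.3 in TVA, a log2 change of -0.28 ± 0.05 (adjusted p = 0.0208). The receptors through which lymphotoxin-α acts did not pass the test. Tnfrsf1a was at 22.2 ± 1.68 TPM in DMSO and 22.7 ± 1.92 in TVA, and Tnfrsf1b at 48.6 ± 2.73 and 50.4 ± 1.37. Tnfrsf14, which encodes HVEM, was at 22.3 ± 1.15 and 23.1 ± 2.03, and Ltbr, the lymphotoxin-β receptor, at 1.15 ± 0.225 and 1.02 ± 0.231. The RANKL receptor gene Tnfrsf11a and its decoy Tnfrsf11b lay at 0.0100 to 0.180 TPM in every library and were not tested.

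The TNF family ligands outside the 10 genes held 5 of 11 that were tested, of which 1 rose and 3 fell, with a median log2 change of -0.33. This median depended on the filter. It was -0.0002 over all 11 in the fit of all genes above 0 TPM, where 1 rose and 1 fell. With a mean of 10 TPM or more it was -0.16. Tnfsf9 encodes 4-1BBL and went from 16.97 ± 0.917 to 13.3 ± 0.369 TPM (log2 change -0.33 ± 0.05, adjusted p = 0.0162). Cd70, the ligand of CD27, went from 18.6 ± 2.39 to 14.1 ± 0.131 TPM (-0.37 ± 0.08, adjusted p = 0.0362). Cd40lg, which marks helper T cells more than cytotoxic ones, was at 4.83 ± 0.327 and 3.64 ± 0.171 (-0.33 ± 0.07, adjusted p = 0.0301). Neither Cd70 nor Cd40lg was called with all genes above 0 TPM (adjusted p = 0.0750 and 0.0649). Tnfsf4, which encodes OX40L, rose from 120.4 ± 6.73 to 142.4 ± 2.15 TPM (0.24 ± 0.05, adjusted p = 0.0265), though not with median-of-ratios scaling (adjusted p = 0.0675). Tnfsf8, the CD30 ligand, was the most abundant of the list, with 260.6 ± 25.9 TPM in DMSO and 260.7 ± 5.40 in TVA.

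Downstream of the receptors, 21 genes of TNF receptor and death receptor signalling were tested, of which limma called 2 higher and none lower (3 and 2 at an unadjusted p under 0.05, median -0.02). Casp8, the initiator caspase that FADD recruits, was among those that rose, at 52.6, 55.6 and 53.7 TPM in DMSO and at 61.2, 66.4 and 62.6 in TVA (0.23 ± 0.04, adjusted p = 0.0274). The adaptors and ubiquitin ligases of the NF-κB branch, among them Tradd, Traf2, Ripk1 and Birc3, did not pass.

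Of 10 genes for messenger decay and ligand shedding, limma called none higher and 1 lower (0 and 3 at an unadjusted p under 0.05, median -0.02). This was Zc3h12a, which encodes the endonuclease regnase-1 that degrades cytokine messengers, at 32.4, 28.4 and 28.0 TPM in DMSO and 24.9, 24.0 and 24.5 in TVA (-0.26 ± 0.06, adjusted p = 0.0407). It was not called with all genes above 0 TPM (adjusted p = 0.0742) or without the trend (0.05004). Zfp36, which encodes the AU-rich element binding protein tristetraprolin, was at 70.4 ± 1.68 and 70.4 ± 2.90 TPM. Zfp36l2, of the same list, went from 78.3 ± 15.8 to 60.1 ± 0.28 TPM without overlap (-0.36 ± 0.13, limma adjusted p = 0.1115). Zfp36l1 had a log2 change of -0.12 ± 0.05 (adjusted p = 0.186). Without DMSO replicate 2 these changes were -0.52 and -0.17 (adjusted p = 0.00118 and 0.0267). Adam17, the protease that sheds TNF from the membrane, was at 39.96 ± 0.998 and 41.5 ± 1.26 TPM.

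Of 16 genes that interferon-γ is known to raise, 15 were tested, and limma called 4 higher and none lower (9 and 1 at an unadjusted p under 0.05), with a median log2 change of 0.14. The 4 encode interferon-induced GTPases. Iigp1 was at 91.1, 110 and 106 TPM in DMSO and 123, 129 and 129 in TVA (0.31 ± 0.07, adjusted p = 0.0371). Irgm1 rose by 0.27 ± 0.06, Gbp5 by 0.27 ± 0.05 and Igtp by 0.19 ± 0.04 on the log2 scale, with adjusted p of 0.0348, 0.0259 and 0.0367. None of the 4 was called with median-of-ratios scaling or in the fit of all genes above 0 TPM. Igtp was also not called with the GC correction (adjusted p = 0.0513) or without the trend (0.05355), nor Iigp1 with quantile normalization (0.05845). Socs1, an inhibitor of interferon signalling that was chosen after its values were seen, varied widely within DMSO, at 126, 42.7 and 93.4 TPM. Its TVA mean was 42.1 ± 1.57, so DMSO replicate 2 again lay with the TVA libraries, and the change of -0.90 did not pass (adjusted p = 0.116). Without DMSO replicate 2 the change was -1.34 (limma adjusted p = 0.0003).

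Of 12 genes of the signalling that follows LIF (through gp130) and IL-21, 11 were tested, and limma called none higher and 3 lower (1 and 5 at an unadjusted p under 0.05, median -0.10). Stat5a, a transcription factor of cytokine signalling, was at 179, 159 and 153 TPM in DMSO and at 126, 126 and 125 in TVA (-0.38 ± 0.06, adjusted p = 0.0159). Bcl3, an atypical IκB protein, went from 10.8 ± 2.10 to 7.31 ± 0.342 TPM (-0.50 ± 0.12, adjusted p = 0.0442). Socs3, the feedback inhibitor of gp130, went from 24.1 ± 2.54 to 18.8 ± 0.402 TPM (-0.33 ± 0.07, adjusted p = 0.0373), but with the GC correction its change was -0.02 (adjusted p = 0.842). With all genes above 0 TPM, neither Bcl3 nor Socs3 was called (adjusted p = 0.0902 and 0.0749), nor was Bcl3 without the trend (0.0513). Over the 6 lists together, 8 of 74 genes tested rose and 8 fell, beside 5.28% and 3.23% of all genes. With median-of-ratios scaling 3 rose and 10 fell, beside 2.48% and 4.53%. The lists were written with earlier results of these data known, so these counts are a description and not a test. The 16 calls became 0, 1 and 0 without TVA replicate 1, 2 or 3, became 3 without DMSO replicate 3, and became 26 without DMSO replicate 2.

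**Figure D5:**
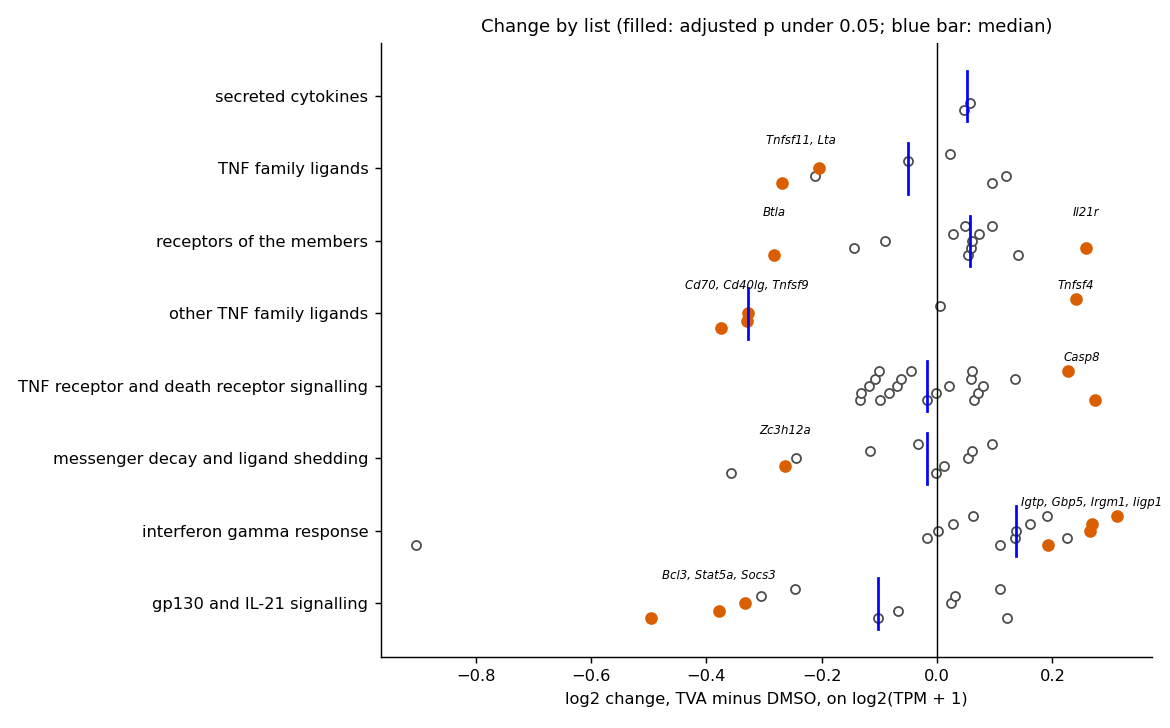
log2 change, TVA minus DMSO on log2(TPM + 1), of every tested gene in the 2 groups of the 10 genes and in the 6 lists around them. Filled points, most of them named above their row, have an adjusted p under 0.05, blue bars are the list medians, and the far left point is Socs1 at -0.90.

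The libraries were alike, with correlations from 0.989 to 0.999 across genes, and DMSO replicate 2 correlated with the TVA libraries (0.996) more than with the other DMSO libraries (0.993 and 0.995). The CD8+ T cell markers summed to 1516 to 1638 TPM in DMSO and 1756 to 1787 in TVA, so the cells carried the markers of their label. Of these 5 markers 1 rose with TVA, Cd3g (log2 change 0.29, limma adjusted p = 0.00627), beside 5.28% of all genes tested. Between the groups 4 did not overlap, beside 38.6% of all genes. The exception, Cd8b1, had a log2 change of -0.03. Summed markers of myeloid cells were at 40.7 to 44.4 TPM in DMSO and 54.2 to 55.8 in TVA. Most of the sum was Lyz2, with means of 30.3 and 39.7 TPM. Of 5 tested, 1 rose, Lyz2 (4 higher and 0 lower at an unadjusted p under 0.05), and 4 did not overlap between the groups. Summed markers of B cells were at 11.3 to 14.9 and 10.7 to 11.02. Those of NK cells were at 41.6 to 44.6 and 55.3 to 56.3, and 1 of 3 tested, Eomes, which CD8+ T cells also express, rose. Dendritic cell markers summed to 7.46 to 7.65 TPM in DMSO and 6.56 to 7.23 in TVA, and follicular helper markers to 7.74 to 8.76 and 8.05 to 8.56. Red cell markers were at 11.5 to 24.8 and 7.27 to 20.5. No marker was at 0 in every library, and the part of such cells in the changes above was not tested.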

How the data were processed

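RNA was measured by bulk RNA-seq in 6 libraries of CD8+ T cells, 3 in DMSO and 3 in TVA, grouped by the sample titles. A SMARTER mRNA-Seq kit was used for the libraries. The authors deposited one table of TPM per gene symbol, and the submitters' processing notes name STAR, RSEM and mm10. Tool versions, the annotation and the use of strand are not given in the sources used here. TPM sums to about the same total in each library, so depth is unknown and no counting interval is given. Where a gene has 0, it is only listed at 0.

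The 10866 genes that reached 1 TPM in 3 or more libraries were compared on log2(TPM + 1), which understates the change of low genes, with limma 3.58.1 in R 4.3.3 (moderated variances with a trend, two-sided, Benjamini-Hochberg adjustment over all genes tested, threshold 0.05). No replicate block was used. Changes are given with SE, or with 95% intervals, and levels as mean ± SD. The fit was tested on simulated data. To correct for GC content (GENCODE vM21, known for 99.4% of genes tested), deviations from the gene means were fitted against it by loess with span 0.5 in every library, and the fitted curve was removed. Other alternatives were a pseudocount of 0.1, all genes above 0 TPM, a mean of 10 TPM or more, median-of-ratios scaling, quantile normalization, no trend, a replicate block and the omission of each library. For Il21, omitting libraries and a pseudocount of 0.1 in the fit of all genes were added after seeing the data, as was the ratio of Tnf to Lta without DMSO replicate 2.

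Coordinates and promoter windows are from RefSeq (GRCm38.p6) and 3′ regions from GENCODE vM21. The 10 genes, the lists around them and the marker lists were chosen with earlier results of these data known. Named were all 10 genes, every list gene past the threshold, the receptors of ligands that passed, and the 3 genes most correlated with the passing member of smallest adjusted p. One gene that the rule would name is not reported here. The other list genes given by their levels were named after their values were seen.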

Additional observations from a re-analysis of the deposited data

How the results depend on the processing

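Lta and Tnfsf11 kept their direction under all 14 alternatives and were called under 10 and 9 of them. Of the 10 genes, between 0 (without any one TVA library) and 3 (without DMSO replicate 2) were called when single libraries were left out. Whether the replicate numbers pair the samples is not given by the labels. Deviations of same-numbered libraries from their group means had correlations of 0.157, 0.035 and -0.077. With 3 libraries per group these values cannot settle it. With a replicate block, 0 of the 9 were called (adjusted p = 0.0571 for Lta and 0.0530 for Tnfsf11), 5 of the 16 list genes, and 93 genes rose and 125 fell in the whole table, beside 574 and 351. Without DMSO replicate 2 the whole table gave 1223 and 1019. Calls among the lists were 7 with all genes above 0 TPM and ranged from 0 to 26 over the omission of single libraries.

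Among the 10 genes and the list genes named by rule, signs turned only for changes that had not passed the test. With the GC correction Ifng went to -0.0105, Ltb to 0.0806 and Tnfsf10 to -0.0291. With median-of-ratios scaling Tnfsf10 went to -0.0105 and Tnfrsf1a to -0.0092. When single libraries were left out, Tnfsf10 ranged from -0.0357 to 0.0679, Tnfrsf1a from -0.039 to 0.0855 and Tnfrsf14 from -0.0028 to 0.1175. The cause was not tested. Median-of-ratios scaling also turned the split of calls over all genes to 270 higher and 492 lower, while the median of all changes moved from 0.04 to 0.00. Of 125 alternative values for the 9 genes, 109 kept direction and call, 9 lost the call and 1 gained it. Of 277 for the other named genes, 181 kept both and 92 lost the call.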
